A study of Mus musculus with 11 samples.

Results

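Transcript levels of 10 chromatin genes were followed in mouse leukaemia cells over 0, 48 and 96 h of 4-hydroxytamoxifen. They comprise the H3K36 methyltransferase genes Nsd1, Nsd2, Nsd3, Setd2 and Ash1l, the DNA methyltransferase genes Dnmt1, Dnmt3a and Dnmt3b, and the Tet genes Tet2 and Tet3. Members were the array probes whose RefSeq accession belongs to these genes, which gave 21 of the 55681 probes on the array. All 21 probes passed the filter on dim probes, and all 10 genes were among the 25079 genes or unnamed features tested. Tet2, Dnmt1 and Nsd2 were higher at 96 h than at 0 h and than at 48 h, by 1.5- to 1.78-fold, while at 48 h none of the 10 differed from 0 h past the test's threshold.

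Methylation of lysine 36 on histone H3 marks active chromatin. The Nsd family and Ash1l place the dimethyl mark, and Setd2, which travels with elongating RNA polymerase, places the trimethyl mark in gene bodies. The de novo DNA methyltransferases Dnmt3a and Dnmt3b bind these marks through their PWWP domains, Dnmt1 copies DNA methylation onto the new strand after replication, and Tet enzymes oxidise methylated cytosine. DNMT3A and TET2 are recurrently mutated in human myeloid leukaemia, and NSD1 occurs there in fusion genes. Some Kdm4 demethylases remove trimethyl groups from H3K36 as well as from H3K9.

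The cells, labelled L-GMP, were mouse granulocyte-macrophage progenitors that the oncogenic fusion MLL-AF9 had transformed, from 4 lines derived from leukaemic C57BL/6 mice. The 3 groups were 48 h (n = 4 arrays) and 96 h (n = 3) of 500 nM 4-hydroxytamoxifen, and 0 h before its addition (n = 4). In all 3 groups the Kdm4a, Kdm4b and Kdm4c alleles were floxed (named Jmjd2a, b and c in the labels) and CreERT2, a tamoxifen-activated Cre recombinase, sat at Rosa26, and all groups grew in RPMI with 20% FBS and 10 ng/ml IL-3. Treated cells without floxed alleles and untreated cells at 48 or 96 h were not analysed here, so loss of the floxed genes, the drug or recombinase, and time cannot be told apart. The labels do not say which array holds which line, and p-values measure the spread between these arrays.

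Each level below is a scaled log2 signal, log2 of the processed probe signal minus the 75th percentile of its array, and is compared only within a probe. Differences are log2 differences from limma with their SE, and a gene is called at a Benjamini-Hochberg adjusted p under 0.05 over all genes tested. The floxed genes fell in each treated group: at 48 h and 96 h the Kdm4a probe was at 33.1% and 43.6% of its 0 h level, the Kdm4b probe at 10.2% and 10.5%, and the Kdm4c probe at 3.24% and 4.13% (largest adjusted p = 0.00377). Kdm4c was well above background on 2 of 4 arrays at 48 h and on all 3 at 96 h. With normexp correction the log2 difference at 48 h was -2.59 in place of -4.95 for Kdm4c and -2.30 in place of -3.30 for Kdm4b. At 96 h it was -2.55 in place of -4.60 for Kdm4c and -2.30 in place of -3.24 for Kdm4b, so the remaining shares are uncertain. All 8 granulocyte-monocyte progenitor markers, Kit, Cd34, Mpo, Elane, Prtn3, Ctsg, Ms4a3 and Flt3, were well above background on every array. The defining erythroid, lymphoid and stromal markers Hbb-b1, Alas2, Cd3g, Ms4a1, Il7r, Ncr1, Pdgfra and Cdh5 did not reach signals well above background on 3 arrays, whereas Epor, Hba-a1, Cd3e, Cd79a, Cd8a, Col1a2 and Pecam1 of the same lists were well above background on all 11. All 96 h arrays lay on slide 2 and all 0 h and 48 h arrays on slide 1, so slide and 96 h cannot be told apart, while 48 h against 0 h lies within 1 slide. Between 27557 and 42054 of the probes were well above background per array, and the number of arrays limits the precision.

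Across the 10 genes, 0 were called at 48 h against 0 h, where 18.6% of all genes were called, 10.5% higher and 8.03% lower. Without adjustment, 4 of the 10 had p under 0.05 in that limma comparison, against 34.7% of all genes. At 96 h against 0 h, 3 were called higher and 0 lower, where 9.56% of all genes were called, 6.18% higher and 3.38% lower. The same 3 genes were called higher when 96 h was set against 48 h, where 11.1% of all genes were called, 5.17% higher and 5.95% lower. Without adjustment, 6 of the 10 had p under 0.05 in each comparison of 96 h, against 28.5% of all genes relative to 0 h and 28.1% relative to 48 h. All arrays at 96 h lay above all arrays at 0 h for 6 of the 10 (16.4% of all genes) and above all arrays at 48 h for 5 of the 10 (14.2%), and all at 48 h lay above all at 0 h for 1 of the 10 (14.1%). Higher at 96 h than at each earlier time, called both times, were 1.76% of all genes, 442 in number. Relative to 0 h, the median log2 difference of the 10 genes was -0.04 at 48 h and 0.37 at 96 h, beside 0.12 and 0.11 over all genes. Relative to 48 h it was 0.39 at 96 h, beside 0.03. All 10 log2 differences at 96 h against 0 h were above 0, from 0.03 to 0.78, but with arrays scaled to their median, which moved the median of all genes to -0.28, those of Nsd1, Nsd3, Setd2, Dnmt3a and Tet3 were below 0 and no member was called. That scaling also turned the split of all genes called at 96 h against 0 h to 231 higher and 2328 lower, against 1549 higher and 848 lower. The plot of log2 differences shows the 3 called genes to the right of the median of all genes in both comparisons of 96 h.

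**Figure D1:**
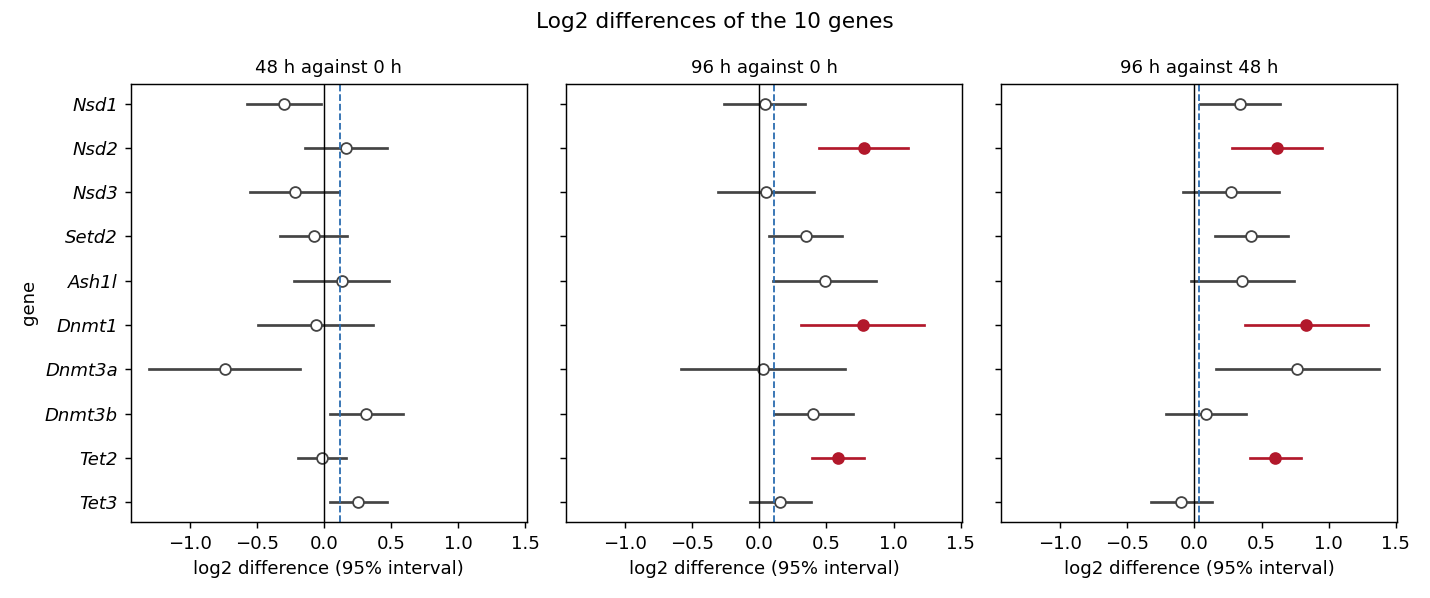
Log2 differences of the 10 genes with their 95% intervals, by comparison of 2 time points. Filled red points have an adjusted p under 0.05 and the dashed line is the median of all genes tested. Nsd2, Dnmt1 and Tet2 are called in both comparisons of 96 h, and no gene is called at 48 h against 0 h.

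**Figure D2:**
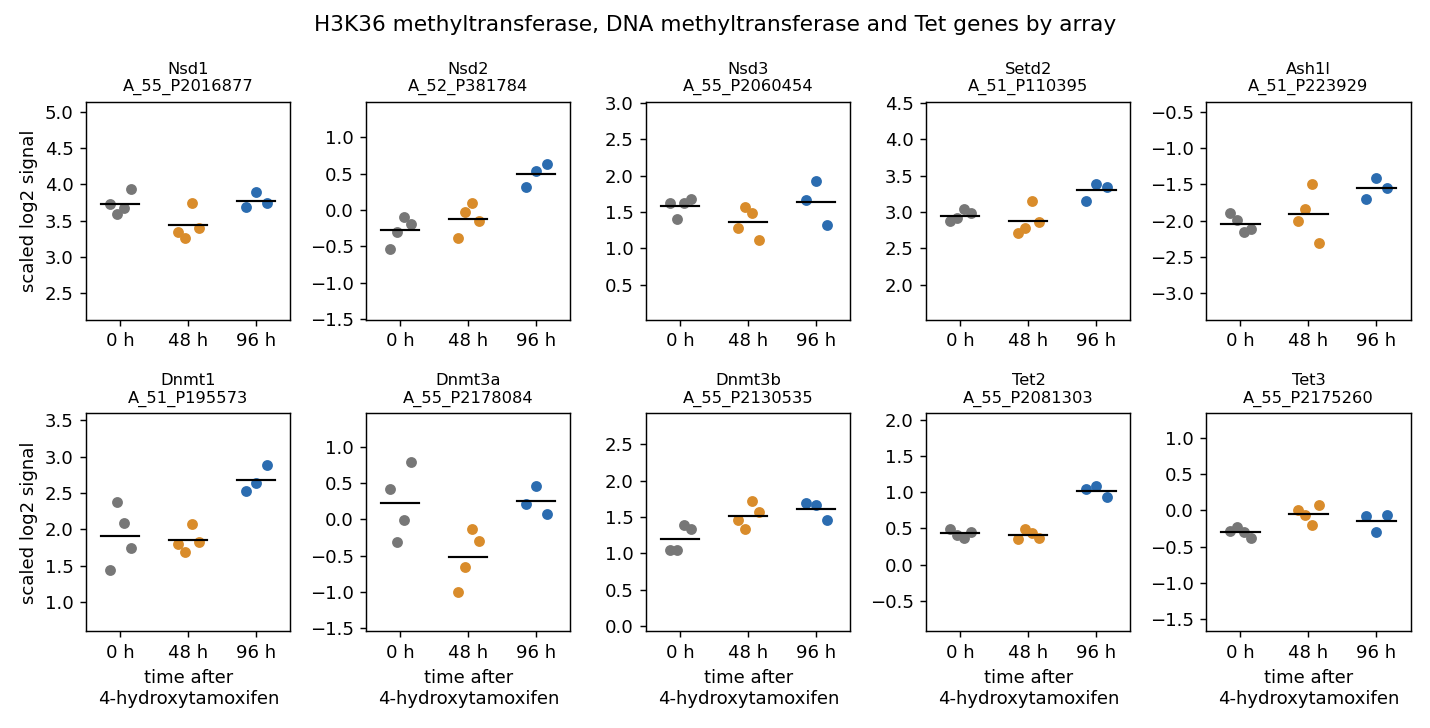
Scaled log2 signal of the probe that represents each gene on every array (points) with the group mean (line) at 0, 48 and 96 h of 4-hydroxytamoxifen (n = 4, 4 and 3). The 3 arrays at 96 h lie above all 8 earlier arrays for Nsd2, Setd2, Dnmt1 and Tet2, and Dnmt3a has its lowest mean at 48 h.

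Among the H3K36 methyltransferase genes, Nsd2 was the member called. Nsd2 places the H3K36 dimethyl mark and is the gene joined to the immunoglobulin locus by a translocation in human myeloma. Its representing probe A_52_P381784 read -0.54, -0.31, -0.10 and -0.19 at 0 h, -0.39, -0.02, 0.10 and -0.16 at 48 h, and 0.31, 0.53 and 0.64 at 96 h. The 3 arrays at 96 h were the highest and did not overlap with either earlier group, whereas 48 h and 0 h overlapped. At 96 h the mean was 0.49 ± 0.16 (SD, n = 3), against -0.28 ± 0.19 at 0 h (n = 4), a log2 difference of 0.78 (SE 0.15, 1.71-fold, limma adjusted p = 0.0167). Against 48 h, with -0.12 ± 0.21, the log2 difference was 0.61 (SE 0.15, 1.53-fold, limma adjusted p = 0.0292). At 48 h against 0 h it was 0.16 (SE 0.14), with a 95% interval of -0.14 to 0.47 and an adjusted p of 0.425. The call at 96 h against 0 h was lost without 96 h replicate 2 or 3 (adjusted p = 0.0562 and 0.0569). The call relative to 48 h was lost without 48 h replicate 1 or 4 or any of the 96 h replicates (adjusted p = 0.0526 to 0.0944). Median scaling took the difference to 0.39 relative to 0 h (adjusted p = 0.311) and 0.45 relative to 48 h (adjusted p = 0.349), and fitting only the 2 groups compared gave an adjusted p of 0.0512 in both comparisons.

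The 4 Nsd2 probes did not move alike. Probes A_52_P381784 and A_55_P2113523 carry accession NM_001177884, and A_55_P2113524 and A_55_P2099064 carry NM_001081102. Probe A_55_P2099064 read -1.45, -1.34, -1.12 and -1.15 at 0 h, -1.38, -1.45, -1.79 and -1.47 at 48 h, and -1.06, -0.94 and -0.82 at 96 h. Its 96 h arrays lay above all earlier arrays, and with adjustment over all 34269 probes it was called at 96 h against 48 h (0.59, SE 0.13, adjusted p = 0.0252) and not at 96 h against 0 h (0.32, adjusted p = 0.146). That call was lost with arrays scaled to their median (0.42, adjusted p = 0.319), where the difference from 0 h turned to -0.06, and with normexp the difference from 48 h was 0.27 (adjusted p = 0.0394). For A_55_P2113523 and A_55_P2113524 the groups overlapped, with log2 differences at 96 h against 0 h of 0.16 (adjusted p = 0.482) and -0.04 (adjusted p = 0.862). Each accession thus had a probe that was called at 96 h against 48 h in the fit without that scaling and a probe that was not. With the mean of the 4 probes in place of the brightest, the Nsd2 log2 difference was 0.31 at 96 h against 0 h (adjusted p = 0.0938) and 0.34 at 96 h against 48 h (adjusted p = 0.0772), so neither call held with that mean.

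Setd2, which encodes the enzyme that adds the trimethyl mark to H3K36, had a smaller difference that did not pass the test. Probe A_51_P110395 read 2.87, 2.91, 3.04 and 2.98 at 0 h, 2.71, 2.78, 3.15 and 2.86 at 48 h, and 3.16, 3.38 and 3.35 at 96 h. The 96 h arrays lay above every earlier array, with 48 h replicate 3 just below 96 h replicate 1. The log2 difference was 0.42 (SE 0.12, 1.34-fold, limma adjusted p = 0.0509) at 96 h against 48 h and 0.34 (SE 0.12, 1.27-fold, limma adjusted p = 0.0968) at 96 h against 0 h. Between 48 h and 0 h it was -0.08, with a 95% interval of -0.33 to 0.17. Without 48 h replicate 3, the highest array of its group, Setd2 was called at 96 h against 48 h (0.52, adjusted p = 0.0216), and a block by the replicate number in the file names also gave a call (adjusted p = 0.0397). Setd2 was called at 96 h against 48 h under 7 of the 13 alternatives, among them the authors' deposited table (adjusted p = 0.0131). That table also gave a call at 96 h against 0 h (adjusted p = 0.0236), as did 2 of the 13 alternatives in all. With arrays scaled to their median, the log2 difference was 0.26 against 48 h (adjusted p = 0.562) and -0.04 against 0 h (adjusted p = 0.923). Of the 11 fits that left out an array, 1 gave a call against 48 h, that without 48 h replicate 3, and 0 against 0 h.

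Ash1l encodes another H3K36 dimethyltransferase, and Nsd1 and Nsd3 are paralogs of Nsd2. Ash1l (A_51_P223929) read -1.90, -2.0, -2.16 and -2.12 at 0 h, -2.0, -1.84, -1.5 and -2.31 at 48 h, and -1.70, -1.41 and -1.55 at 96 h. The 96 h arrays lay above those at 0 h, with a log2 difference of 0.49 (SE 0.17, limma adjusted p = 0.0986), and overlapped with 48 h because 48 h replicate 3 was high. Nsd1 (A_55_P2016877) read 3.73, 3.59, 3.68 and 3.94 at 0 h, 3.34, 3.26, 3.74 and 3.40 at 48 h, and 3.69, 3.90 and 3.74 at 96 h. Here 3 of the 4 arrays at 48 h lay below every other array, and 48 h replicate 3 did not. At 48 h against 0 h the Nsd1 log2 difference was -0.30 (SE 0.12, limma adjusted p = 0.118), and without that replicate it was -0.40 (adjusted p = 0.0408). That was the only call among the 11 fits that left out an array (adjusted p up to 0.273). At 96 h against 0 h the Nsd1 log2 difference was 0.04, with a 95% interval of -0.26 to 0.34.

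The dimmer Nsd1 probe, A_52_P565940, moved the other way. It read 1.0, 1.38, 1.19 and 1.40 at 0 h, 1.52, 1.30, 1.71 and 1.56 at 48 h, and 0.91, 1.30 and 0.88 at 96 h. The log2 differences were 0.28 at 48 h against 0 h (adjusted p = 0.193 over all probes) and -0.50 at 96 h against 48 h (adjusted p = 0.0676), where the groups did not overlap. Within an array, the difference between the brighter and the dimmer Nsd1 probe was 1.91 ± 0.10 at 48 h (SD, n = 4), against 2.49 ± 0.21 at 0 h (n = 4), with no overlap (exact 2-sided permutation p = 0.0286). At 96 h it was 2.75 ± 0.13 (n = 3), against 1.91 ± 0.10 at 48 h, also with no overlap (exact permutation p = 0.0571). These comparisons were chosen after seeing the data, among 51 over 17 probe pairs in 6 genes. None passed adjustment (lowest adjusted p = 0.291), and the smallest p the design allows is 0.0286 for 4 against 4 arrays and 0.0571 for 3 against 4.

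Nsd3, also named in leukaemia fusions, showed no call with any of its 3 probes. Its representing probe A_55_P2060454 ranged from 1.40 to 1.68 at 0 h, from 1.12 to 1.56 at 48 h and from 1.31 to 1.93 at 96 h, and the groups overlapped. The 95% intervals of its log2 difference were -0.55 to 0.11 at 48 h against 0 h and -0.31 to 0.41 at 96 h against 0 h. Probe A_55_P2298029 had an outlying low array at 0 h (replicate 2, -0.35) and at 48 h (replicate 1, -0.39).

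**Figure D3:**
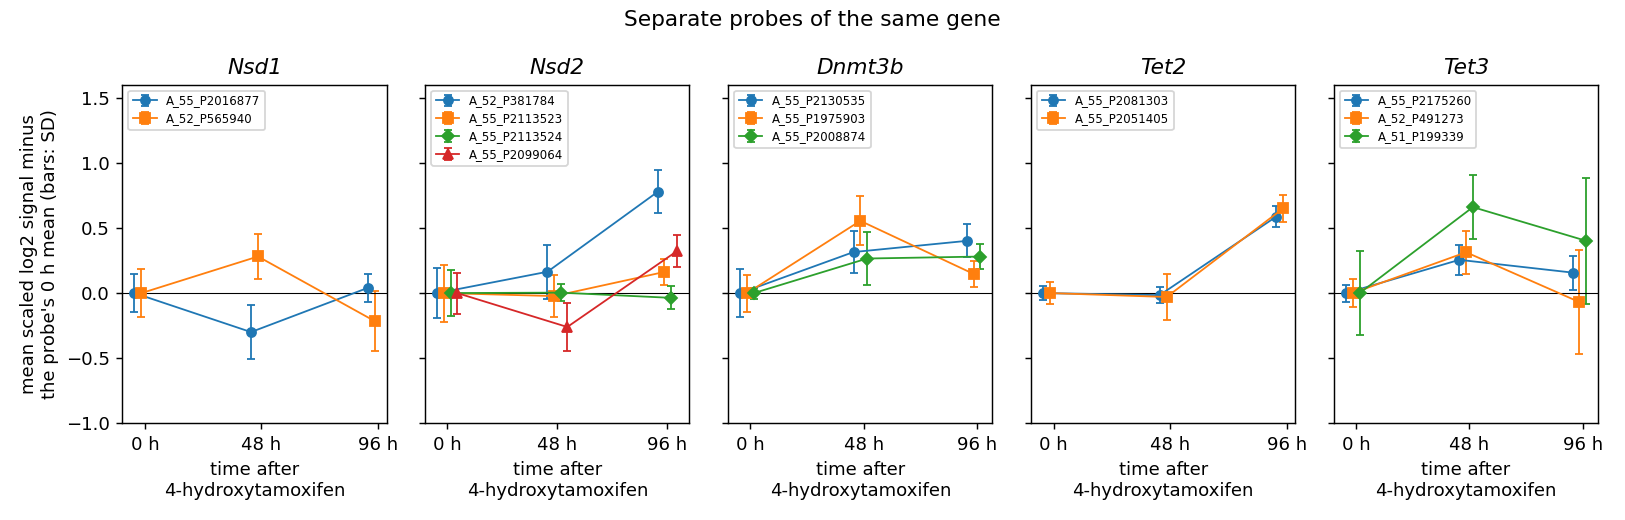
Mean scaled log2 signal of each probe minus its own 0 h mean at 0, 48 and 96 h (n = 4, 4 and 3 arrays, bars SD) for Nsd1, Nsd2, Dnmt3b, Tet2 and Tet3. The 2 Tet2 probes lie on each other, those of Nsd1 run in opposite directions, and 2 of the 4 Nsd2 probes have their highest means at 96 h well above 0.

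Among the DNA methylation enzymes, Tet2 and Dnmt1 were called, and RefSeq (GRCm38.p6) gave promoter windows for both. These windows span 250 bases before to 50 after the annotated start, and are shown with every CpG, the dinucleotide on which these enzymes act, in capitals. The Tet2 window lies at chr3:133544341-133544640 on the minus strand. Dnmt1 has several annotated starts, and the window printed is the one with the most CpGs, at chr9:20952574-20952873 on the minus strand. Its other windows lie upstream, and which start these cells use was not tested.

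Tet2: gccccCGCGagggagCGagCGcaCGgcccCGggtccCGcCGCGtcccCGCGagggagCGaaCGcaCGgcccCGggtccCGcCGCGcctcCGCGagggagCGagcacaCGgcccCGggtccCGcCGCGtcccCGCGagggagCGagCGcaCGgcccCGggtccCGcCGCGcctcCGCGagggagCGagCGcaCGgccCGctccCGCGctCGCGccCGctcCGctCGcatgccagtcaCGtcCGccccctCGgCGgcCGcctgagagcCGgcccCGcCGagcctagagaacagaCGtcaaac

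Dnmt1: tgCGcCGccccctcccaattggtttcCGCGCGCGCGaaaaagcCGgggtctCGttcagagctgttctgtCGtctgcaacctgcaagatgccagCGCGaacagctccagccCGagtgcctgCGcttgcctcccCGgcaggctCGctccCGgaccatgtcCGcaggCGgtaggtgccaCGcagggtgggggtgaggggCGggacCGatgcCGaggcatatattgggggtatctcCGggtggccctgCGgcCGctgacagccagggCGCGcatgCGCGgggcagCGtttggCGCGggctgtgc

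The Tet2 window holds 57 CpGs, more than 99.8% of the 32851 windows of that length (median 7), and is 81.3% G or C. The Dnmt1 window holds 33, more than 91.4% of windows, with 69.7% G or C, and the other 2 Dnmt1 windows hold 12 and 2. Counting either strand, the Dnmt1 window has 2 GC boxes (GGGCGG, present in 35.7% of all windows) and 3 CCAAT boxes (CCAAT, in 37.4%), and the Tet2 window has 1 GC box and no CCAAT box. The E2F letters TTTCCCGC, found in 1.07% of windows, the E-box CACGTG (7.15%), the ETS core CCGGAAG (8.86%) and TATAAA (13.6%) were in neither printed window. Only these exact letters were searched, so sites spelled otherwise, E2F sites among them, may be present. GGGCGG contains a CpG, so GC boxes and CpG counts are not independent. Of the other members, the Setd2 window held 38 CpGs, those of Dnmt3a 46, 47 and 18, that of Dnmt3b 30 and that of Tet3 22. Windows for Nsd1, Nsd2, Nsd3 and Ash1l were not used here.

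Tet2, which encodes an enzyme that converts methylcytosine to hydroxymethylcytosine, was the member with the lowest adjusted p at 96 h. Probe A_55_P2081303 read 0.50, 0.42, 0.36 and 0.45 at 0 h, 0.36, 0.50, 0.44 and 0.37 at 48 h, and 1.05, 1.08 and 0.93 at 96 h. The 0 h and 48 h arrays were interleaved, and all 3 arrays at 96 h stood clear of them. At 96 h the mean was 1.02 ± 0.08 (SD, n = 3), against 0.43 ± 0.06 at 0 h (n = 4), a log2 difference of 0.59 (SE 0.09, 1.5-fold, limma adjusted p = 0.00784). Against 48 h, with 0.42 ± 0.06 (n = 4), the log2 difference was 0.60 (SE 0.09, 1.52-fold, limma adjusted p = 0.00468). At 48 h against 0 h it was -0.02, with a 95% interval of -0.19 to 0.16. Both calls held in all 11 fits that left out 1 array.

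The second Tet2 probe, A_55_P2051405, carries the same accession and gave the same pattern. It read -1.45, -1.43, -1.47 and -1.28 at 0 h, -1.37, -1.28, -1.42 and -1.69 at 48 h, and -0.65, -0.85 and -0.77 at 96 h. Its 96 h arrays again lay above all earlier ones, with log2 differences of 0.65 (SE 0.12, adjusted p = 0.016 over all probes) at 96 h against 0 h and 0.68 (SE 0.12, adjusted p = 0.0103) at 96 h against 48 h. The gene's calls were lost when arrays were scaled to their median, where the log2 difference was 0.20 at 96 h against 0 h (adjusted p = 0.466) and 0.44 at 96 h against 48 h (adjusted p = 0.191). Relative to the median of all genes, the Tet2 difference at 96 h against 0 h was 0.48 with the main scaling. Median scaling and the percentile over bright probes shift all genes alike, so they repeat that value by construction. With quantile normalization it was 0.60. With normexp and with the authors' deposited table, which are nearly the same processing, it was 0.49.

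Dnmt1, the maintenance DNA methyltransferase gene, rose by a larger amount with a wider spread. Probe A_51_P195573 read 1.44, 2.38, 2.09 and 1.74 at 0 h, 1.80, 1.68, 2.07 and 1.83 at 48 h, and 2.53, 2.63 and 2.88 at 96 h. The 96 h arrays lay above all earlier arrays, the nearest being 0 h replicate 2. At 96 h the mean was 2.68 ± 0.18 (SD, n = 3), against 1.91 ± 0.41 at 0 h (n = 4), a log2 difference of 0.77 (SE 0.21, 1.71-fold, limma adjusted p = 0.0447). Against 48 h, with 1.85 ± 0.16 (n = 4), the log2 difference was 0.83 (SE 0.21, 1.78-fold, limma adjusted p = 0.031). At 48 h against 0 h it was -0.06, with a 95% interval of -0.49 to 0.36. The call at 96 h against 0 h was kept in only 1 of the 11 fits that left out an array, the fit without 0 h replicate 2 (0.93, adjusted p = 0.0151). In the other 10, which left out 0 h replicate 1, 3 or 4 or any array at 48 h or 96 h, the adjusted p was 0.0526 to 0.133. At 96 h against 48 h the call was lost without 48 h replicate 1, 2 or 4 or any 96 h replicate (adjusted p = 0.0679 to 0.0987), and a block by the replicate number in the titles gave 0.0656 against 0 h and 0.0541 against 48 h. Without the filter on dim probes the adjusted p was 0.0832 and 0.0647, and with only the 2 groups compared it was 0.102 relative to 0 h. Median scaling took the difference to 0.39 relative to 0 h (adjusted p = 0.371) and 0.67 relative to 48 h (adjusted p = 0.205).

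The de novo methyltransferase genes Dnmt3a and Dnmt3b were not called. Dnmt3a (A_55_P2178084) read 0.42, -0.31, -0.01 and 0.79 at 0 h, -1.0, -0.66, -0.13 and -0.29 at 48 h, and 0.21, 0.46 and 0.08 at 96 h. The 48 h arrays were the lowest on average and overlapped with 0 h only through 0 h replicate 2, and every 96 h array lay above every 48 h array. At 48 h against 0 h the log2 difference was -0.74 (SE 0.25, limma adjusted p = 0.0671), and without 0 h replicate 2 it was -0.92 (adjusted p = 0.0281). That was the only call among the 11 fits that left out an array (adjusted p up to 0.162). At 96 h against 48 h the Dnmt3a log2 difference was 0.77 (SE 0.27, limma adjusted p = 0.0992), and at 96 h against 0 h 0.03, with a 95% interval of -0.58 to 0.64. Of the 10 representing probes, that of Dnmt3a had the widest spread at 0 h, with an SD of 0.48.

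Dnmt3b was measured by 3 probes of the same accession, all with means above 0 h in both treated groups, except that with arrays scaled to their median A_55_P1975903 and A_55_P2008874 lay below 0 h at 96 h. The representing probe A_55_P2130535 read 1.04, 1.05, 1.39 and 1.34 at 0 h, 1.46, 1.34, 1.71 and 1.57 at 48 h, and 1.69, 1.67 and 1.46 at 96 h. All 96 h arrays and 3 of the 4 at 48 h lay above every 0 h array. The log2 difference was 0.32 (SE 0.12, limma adjusted p = 0.0992) at 48 h against 0 h and 0.40 (SE 0.13, limma adjusted p = 0.0812) at 96 h against 0 h. Probe A_55_P1975903 read 0.89, 0.77, 0.62 and 1.07 at 48 h, against 0.37, 0.41, 0.09 and 0.26 at 0 h, and 0.32, 0.49 and 0.49 at 96 h. That probe was called at 48 h against 0 h (0.56, SE 0.12, adjusted p = 0.0151 over all probes) but not with arrays scaled to their median (0.33, adjusted p = 0.319). Every 96 h array lay below every 48 h array (-0.41, adjusted p = 0.0745). Averaging the 3 probes gave the gene a call at 48 h against 0 h (0.38, adjusted p = 0.0132), and 4 of the 13 alternatives did so in all.

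Tet3, the other Tet gene among the members, was not called. Its mean was highest at 48 h, except with normexp or the authors' deposited table, where 96 h and 48 h were level. Its representing probe A_55_P2175260 read -0.28, -0.23, -0.30 and -0.39 at 0 h, 0.01, -0.06, -0.20 and 0.07 at 48 h, and -0.07, -0.29 and -0.06 at 96 h. Every 48 h array lay above every 0 h array, and the 96 h arrays overlapped with both. The log2 difference was 0.26 (SE 0.10, limma adjusted p = 0.0874) at 48 h against 0 h and 0.16 (SE 0.10, adjusted p = 0.34) at 96 h against 0 h. The 48 h difference was 0.11 with normexp and 0.03 with median scaling. Groups did not overlap at 48 h against 0 h for the other 2 Tet3 probes either, with log2 differences of 0.31 for A_52_P491273 and 0.66 for A_51_P199339 (adjusted p = 0.208 and 0.0751 over all probes). Both probes were dimmer, and with normexp these differences were only 0.05 and 0.09. Probe A_51_P199339 was well above background on 3 of 4 arrays at 0 h and on all later arrays. Tet1, listed among the demethylation partners, had log2 differences of 0.19 at 48 h and 0.26 at 96 h against 0 h, neither called.

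The 3 called members were each set beside the genes whose signal followed theirs most closely over the 11 arrays, as a description. For Tet2 these were Myo1f (Pearson r = 0.98) and Golga4 (0.98), for Nsd2 Slx4 (0.98) and Pik3r4 (0.96), and for Dnmt1 Kif15 (0.97) and Clspn (0.97). The arrays behind these values share slides and scaling, and the members' own differences at 96 h enter them.

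Some markers of another myeloid stage moved at the same time. The summed scaled signal of 11 of the 12 listed mature neutrophil markers was 797 to 1506 at 96 h, against 79.7 to 639 at 0 h, and 172 to 614 at 48 h. These sums are of unlogged signal, so bright markers weigh most, at 96 h S100a9 (mean log2 signal 9.17) and S100a8 (8.19). Of these 11, Camp, Ltf, Retnlg and S100a8 were called higher at 96 h against 0 h, where 6.18% of all genes were. Camp was called higher at 48 h against 0 h, where 10.5% of all genes were. Ngp, Lcn2, Mmp8, Mmp9, S100a9, Cd177 and Cxcr2 were not called in any comparison. Relative to 48 h, 3 of the 11 were called higher at 96 h, Camp, Ltf and Retnlg, where 5.17% of all genes were called higher. Summed progenitor markers were 1214 to 1276 at 96 h, against 856 to 1121 at 0 h, with Mpo and Ms4a3 called higher, and 1294 to 1388 at 48 h, where both were also called higher than at 0 h. Ctsg, the brightest progenitor marker in each group, was not called at either time. Flt3 was called lower at 96 h than at 48 h (-0.93, adjusted p = 0.0225). Over 0, 48 and 96 h, monocyte and macrophage markers summed to 21.8 to 41.3, 28.7 to 35.8 and 21.3 to 29.4, with Fcgr1 called lower at 48 h than at 0 h (-3.71, adjusted p = 0.00736). Erythroid markers summed to 0.33 to 0.46, 0.40 to 0.74 and 0.40 to 0.53, with Epor called higher than at 0 h at 48 h (0.66, adjusted p = 0.00861) and at 96 h (0.87, adjusted p = 0.00973). Lymphoid markers summed to 5.31 to 6.25, 6.23 to 8.26 and 3.72 to 4.6, with Cd3e called lower at 96 h than at 0 h (-0.53, adjusted p = 0.04) and than at 48 h (-0.90, adjusted p = 0.00554). Stromal markers summed to 1.4 to 1.7, 1.37 to 1.47 and 1.51 to 1.66, with none called. The part of these markers' cell types in the Tet2, Dnmt1 and Nsd2 differences was not tested, and in bulk RNA fewer cells of a type and less RNA per cell cannot be told apart.

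Genes that work with the 10 members were described from lists drawn up with earlier results of these data known. Among the 17 readers and partners of H3K36 methylation, 3 were called higher and 0 lower at 96 h against 0 h, and 4 higher at 96 h against 48 h, with medians of 0.16 and 0.36. The shares of all genes were 6.18% higher and 3.38% lower at 96 h against 0 h, and 5.17% higher at 96 h against 48 h. Psip1, a reader that tethers MLL complexes and whose protein is known as LEDGF, was higher by a log2 difference of 0.60 at 96 h against 0 h (adjusted p = 0.0331). Its paralog Hdgfl2 was higher by 0.74 (adjusted p = 0.0173) and Brpf1, a scaffold of MOZ acetyltransferase complexes, by 0.54 (adjusted p = 0.027). These 3 calls were lost without 96 h replicate 2 or 3, those of Psip1 and Brpf1 also without 96 h replicate 1 or 0 h replicate 1 or 4 (adjusted p up to 0.104). Brpf3, a related scaffold, was the list's only call at 48 h against 0 h, lower by -0.67 on the log2 scale (adjusted p = 0.0166), and at 96 h it lay above 48 h (0.62, adjusted p = 0.0375). Called higher at 96 h against 48 h beside Brpf3 were Psip1 (0.56), Brd1 (0.61) and Brpf1 (0.45), all 4 lost without 0 h replicate 4, 48 h replicate 1 or 4, or 96 h replicate 3, among other arrays (adjusted p up to 0.126). With arrays scaled to their median, Brpf3 at 48 h against 0 h was the 1 call of this list that held, and the others had an adjusted p of at least 0.315.

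**Figure D4:**
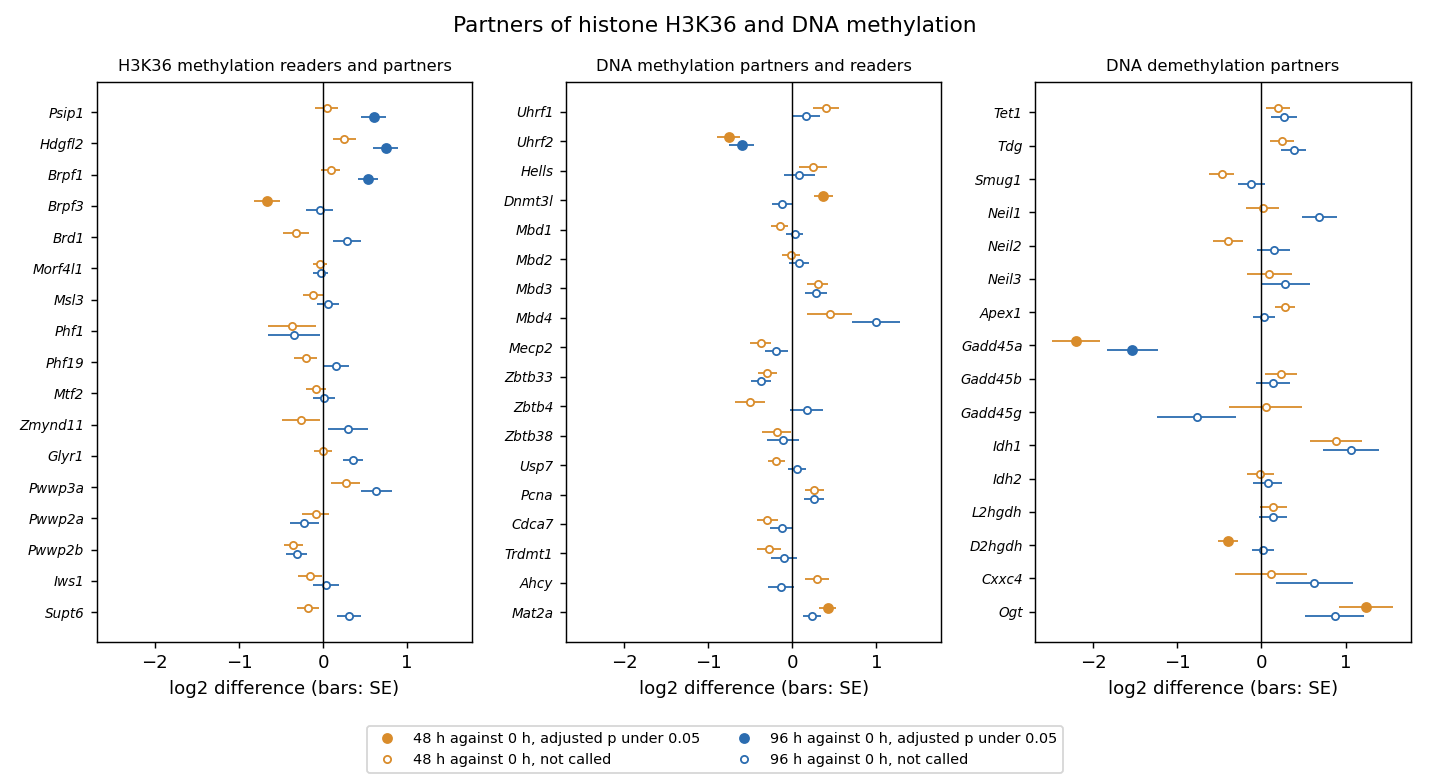
Log2 differences with SE for the listed readers and partners of H3K36 methylation, DNA methylation and DNA demethylation at 48 h against 0 h and 96 h against 0 h. Filled points have an adjusted p under 0.05, among them Uhrf2 and Gadd45a, lower at both times, and Psip1, Hdgfl2 and Brpf1, higher at 96 h.

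Among the 18 partners and readers of DNA methylation, 2 were called higher and 1 lower at 48 h against 0 h, and 1 lower in each comparison of 96 h. Over all genes, 10.5% were called higher and 8.03% lower at 48 h against 0 h. At 96 h, 3.38% were called lower against 0 h and 5.95% against 48 h. Uhrf2, a paralog of the Dnmt1 recruiter Uhrf1, was lower by -0.76 at 48 h against 0 h (adjusted p = 0.00736), a call kept in all 11 fits that left out an array. It was lower by -0.60 at 96 h against 0 h (adjusted p = 0.0345), lost without 0 h replicate 1, 3 or 4 or 96 h replicate 2 or 3 and with a block by title number (adjusted p = 0.0615 to 0.102). Uhrf1 itself had log2 differences of 0.40 at 48 h (adjusted p = 0.101) and 0.17 at 96 h (adjusted p = 0.546) against 0 h. Dnmt3l, the catalytically inactive partner of the Dnmt3 enzymes, was higher at 48 h than at 0 h by 0.37 (adjusted p = 0.0415), kept in 1 of those 11 fits, that without 0 h replicate 1, and lower at 96 h than at 48 h (-0.49, adjusted p = 0.0272), kept in the 4 fits that left out a 0 h array. Mat2a, an S-adenosylmethionine synthetase gene, was higher by 0.42 at 48 h against 0 h (adjusted p = 0.0183), with an adjusted p of 0.0504 to 0.0522 without 0 h replicate 3 or 4 or 48 h replicate 4. That call was also lost with quantile normalization (0.32, adjusted p = 0.0552), with normexp (0.27, adjusted p = 0.0932) and in the authors' deposited table (0.26, adjusted p = 0.0951).

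Of the 16 DNA demethylation partners tested of 17 listed, 1 was called higher and 2 lower at 48 h against 0 h, and 1 lower at 96 h against 0 h. The shares of all genes were 10.5%, 8.03% and 3.38%. Gadd45a, a stress gene linked to active demethylation, was lower by -2.20 at 48 h (adjusted p = 0.00219), a call kept in all 11 fits, and by -1.54 at 96 h (adjusted p = 0.018, and 0.0578 to 0.0603 without 96 h replicate 2 or 3). Ogt, a glycosyltransferase that binds Tet proteins, was higher at 48 h by 1.24 (adjusted p = 0.0265) with overlapping groups, lost without 0 h replicate 1, 3 or 4 or 48 h replicate 3 or 4 (adjusted p up to 0.0711). D2hgdh was lower at 48 h by -0.40 (adjusted p = 0.0484), kept in 1 of the 11 fits, that without 0 h replicate 1. Of 12 tested genes among the other H3K36 enzymes and demethylases, the 3 called in each comparison with 0 h were the floxed genes themselves.

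Among the 19 S phase genes tested, which Dnmt1 accompanies in dividing cells, 2 were called higher at 48 h and 0 at 96 h relative to 0 h, and 1 was called lower at 96 h relative to 48 h. The shares of all genes in these comparisons were 10.5%, 6.18% and 5.95%. E2f1 was higher at 48 h by 0.49 (adjusted p = 0.0174, and 0.05002, above the threshold, without 48 h replicate 1). Ccne1 was higher at 48 h by 0.36 (adjusted p = 0.0473, kept in 0 of the 11 fits) and lower at 96 h than at 48 h by -0.56 (adjusted p = 0.0178, and up to 0.0596 without 96 h replicate 1 or 3). The list's median log2 difference was 0.26 at 48 h and 0.26 at 96 h against 0 h, beside 0.12 and 0.11 over all genes.

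Germline genes that DNA methylation keeps silent in somatic cells were mostly dim: 6 of 16 listed passed the filter on dim probes. The filter admits genes through the group in which they are high, so Rhox5 and Dpep3 are given as values without a test. Rhox5 was not well above background at 0 h, and with the main scaling was at least 2.47-fold higher at 48 h and at least 3.07-fold higher at 96 h. Such bounds set the bright group's mean against the lowest signal well above background, or the dim probe's own where higher. Dpep3, also not well above background at 0 h, was at least 2.37-fold higher at 48 h and at least 2.29-fold higher at 96 h with that scaling. With normexp, the log2 differences at 48 h and 96 h against 0 h were only 0.31 and 0.36 for Rhox5. Those of Dpep3 were 0.22 and 0.16, so the size of these differences is uncertain. Taf7l was higher by 0.74 at 48 h against 0 h (adjusted p = 0.0048), and Ddx4 was lower by -2.11 at 96 h against 0 h (adjusted p = 0.0119). These genes did not share a direction, and DNA methylation itself was not measured. With arrays scaled to their median, the calls of Taf7l, Dnmt3l, Mat2a, Ogt, D2hgdh, E2f1 and Ccne1 were lost.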

How the data were processed

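RNA was measured on 11 1-colour Agilent arrays. Per the file headers, Feature Extraction 11.0.1.1 wrote the scanner files and the design was built on mm9. The deposited probe intensity is the processed signal, background-subtracted within each array, with no scaling from array to array. The deposited median intensities of spot and local background served the normexp alternative, since mean signals were not used here. The authors' deposited table is in log2 units, and the submitters' processing notes name limma without a version. Its column medians lay between 6.17 and 6.19, no genes were centred, and it matched normexp (offset 50) plus quantile normalization of the scanner values. Other deposited columns hold flags of 0 or 1 per spot.

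Control and outlier-flagged spots were left out, spots of a probe averaged, and log2 signals scaled to each array's 75th percentile. Probes well above background on at least 3 arrays were kept (34269), and the brightest stood for its gene. Accessions were matched to RefSeq (GRCm38.p6), which named 27656 of 55681 probes. limma 3.58.1 in R 4.3.3 fitted all 11 arrays in 3 groups (8 residual degrees of freedom), with Benjamini-Hochberg adjustment over 25079 genes, or 34269 probes where stated. The fit was tested on simulated data. Figures used Python 3.11.15 and matplotlib 3.10.9.

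All 10 members and all their probes are named, with list members called in a comparison and the 2 best-correlated named genes of each called member. The members and lists were chosen with earlier results of these data known. Arrays of the same number in the titles correlated in their deviations from group means at 0.14 to 0.28 between 48 h and 0 h, but at -0.04 to 0.36 over all same-numbered pairs. Numbers in the file names, which differ from the titles at 96 h, gave 0.12 to 0.36. The main fit has no block, and both blocks were alternatives, with scaling, background correction, filter, probe choice, slide row, array weights and each array left out.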

Additional observations from a re-analysis of the deposited data

Results flagged for a closer look

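Tet2, Dnmt1 and Nsd2 had effects that differed between 96 h and 48 h by the test of that difference, with a log2 difference of 0.60, 0.83 and 0.61 between these times. This is the comparison of 96 h against 48 h given above, with the same limits, and not a further test. For Tet2, both probes and all 3 arrays at 96 h showed the difference, and for Nsd2, 2 of the 4 probes.

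Of 42 tests of member probes for an array far from its group, 2 stood out, both in the Nsd3 probe A_55_P2298029, and chance gives about 5% of such tests. At 0 h, replicate 2 read -0.35, with the other arrays at 0.24 to 0.35. At 48 h, replicate 1 read -0.39, with the other arrays at 0.07 to 0.12. The other 2 Nsd3 probes had no such array at either time.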

How the results depend on the processing

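Of 1482 values computed under 13 alternatives and 11 fits that left out 1 array, 0 changed sign while called. Median scaling gave 0 members higher at 96 h, whether against 0 h or 48 h, with 424 genes higher at 48 h against 0 h, 231 higher and 2328 lower at 96 h against 0 h, and 158 higher and 762 lower at 96 h against 48 h. It moved the median of all genes from 0.12 to -0.10, from 0.11 to -0.28 and from 0.03 to -0.13. Quantile normalization gave 982 genes higher at 96 h against 0 h. With normexp, the deposited table, the percentile over bright probes or the mean of probes, 1 member, Dnmt3b, was higher at 48 h against 0 h; the first of these gave 1293 and the second 1283 genes lower at 96 h against 0 h. Without the filter, which tests more genes, 1 member was higher at 96 h against 48 h, and relative to 0 h 1495 genes were higher and 1157 lower at 48 h and 653 and 257 at 96 h, with 602 and 765 at 96 h relative to 48 h. Requiring all 11 arrays gave 1 member, Dnmt3a, lower at 48 h. Fitting only the 2 groups compared, with fewer arrays, gave 1 member and 329 genes higher and 106 lower at 96 h against 0 h. Array weights gave 1 member higher (Tet3) and 1 lower (Dnmt3a) at 48 h, and 1286 genes lower at 96 h against 0 h. The replicate block by title number gave 441 genes lower at 96 h against 0 h, and 776 higher and 824 lower at 96 h against 48 h, and that by file-name number gave 1366 lower at 96 h against 0 h. By title number, 96 h replicate 1 correlated with its namesakes (0.36 and 0.30), and 96 h replicates 2 and 3 did not (-0.04 to 0.00). Apart from Dnmt1, Setd2 and the partners named, the blocks changed no member's call. Leaving out 1 array gave 1392 to 2970 genes higher and 1055 to 2461 lower at 48 h against 0 h, 481 to 1958 and 221 to 1335 at 96 h against 0 h, and 402 to 1409 and 586 to 1561 at 96 h against 48 h. Members called ranged from 0 to 1 lower at 48 h against 0 h, from 1 to 3 higher at 96 h against 0 h, and from 1 to 4 higher at 96 h against 48 h. The cause of these shifts was not tested. Dim probes such as the Tet3 probe A_51_P199339 limit what signal over background can show.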
